A study of Homo sapiens with 4 samples.

Results

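The Hippo pathway is a kinase cascade that restrains growth in dense tissues and cultures. Its final kinases, LATS1 and LATS2, phosphorylate the transcriptional coactivators YAP1 and WWTR1 (also called TAZ), which keeps them out of the nucleus. Without that phosphorylation YAP1 and WWTR1 enter the nucleus and act with DNA-binding TEAD proteins on target genes, and LATS2 and AMOTL2 are themselves known as such targets. The pathway is controlled mainly through protein phosphorylation and location, which RNA counts do not measure.

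Of 57820 gene IDs in the count table, 10 were taken by symbol through their Ensembl IDs: the kinases LATS1 and LATS2, the coactivators YAP1 and WWTR1, the DNA-binding partners TEAD1, TEAD3 and TEAD4, the TEAD cofactor VGLL3, and the upstream proteins AMOTL2 and FRMD6. All 10 passed the filter on low counts. The libraries were made from total RNA, after removal of ribosomal RNA, of confluent IMR-90 cells, a line of human fetal lung fibroblasts. RB1 KO cells gave 2 libraries and unedited wild-type cells the other 2. RB1 was disrupted by a lentivirus that delivered Cas9 and a guide against the start codon of the gene, and the cells that survived puromycin were used as a pool, not as a clone. The sources used here describe no transduced and selected wild-type control, so loss of RB1 and the effects of transduction, Cas9 or selection cannot be told apart. They also do not say whether the 2 libraries of a genotype came from separate cultures, so the spread behind each p-value is that among 4 libraries and may be purely technical.

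The libraries held 33480111 and 34247292 counts in genes in RB1 KO cells, against 32827737 and 30873239 in wild-type cells. Levels are given in CPM (counts scaled to library size with TMM factors). RB1 itself was at 82.1 ± 4.47 CPM in RB1 KO cells and 75.8 ± 0.909 CPM in wild-type cells (SD, n = 2 each). This checks no label, since editing of a few bases there can leave the RNA level as it was. The paper reports disruption of RB1 in the edited cells by Western blot, which measures protein. All 12 fibroblast markers examined were present. Their summed levels were 64698 and 60968 CPM in RB1 KO libraries, against 49722 and 51614 CPM in wild-type libraries. All 12 had a positive log2 fold change, with a median of 0.28. LUM, a matrix proteoglycan, was the 1 called higher in edgeR, and 6 were called higher in DESeq2 (1.99% and 2.97% of all tested genes). The 12 epithelial markers lay under 1 CPM each, with CDH1 and GRHL2 at 0 counts and sums of 1.04 and 1.29 CPM in RB1 KO libraries, against 1.77 and 1.79 CPM in wild-type libraries. CDH5 and ERG, which define endothelium, were at 0, while the receptor TEK rose (edgeR adjusted p = 0.0479). The endothelial markers summed to 182 and 157 CPM in RB1 KO libraries, against 121 and 124 CPM in wild-type libraries. Of these markers 2 were tested, with a median log2 fold change of 0.68. Both were higher at an unadjusted p under 0.05 in edgeR, against 8.16% of all tested genes. The 6 leukocyte markers lay under 1 CPM each. The 13 mitochondrial mRNAs had a median log2 fold change of -0.49, with 12 of them negative and 8 lower at an unadjusted p under 0.05, and 0 passed after adjustment in edgeR, against 3 in DESeq2. Their sums were 5961 and 6426 CPM in RB1 KO libraries, against 5903 and 7485 CPM in wild-type libraries, highest in wild-type replicate 2, and with mitochondrial genes removed LATS2 and VGLL3 were still the genes called among the 10. The part of these marker differences in the results that follow was not tested.

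TEAD proteins bind the letters GGAATG, or CATTCC on the other strand. RefSeq windows from 250 bases before to 50 bases after an annotated start (build GRCh38.p14) were found for 8 of the 10 genes, with 11 windows in all. The letters were found in 3 of these 11 windows (27.3%), and in 14.0% of 35116 windows of the same length over all genes. These 3 places are printed because 2 of them belong to LATS2 and AMOTL2, the genes of the 10 that are also known targets. Capitals mark the matched letters, and each sequence runs 5′ to 3′ along the gene's own strand.
LATS2 (chr13:21061568-21061589, minus strand): cgtgacgcccgtGGAATGccaa
AMOTL2 (chr3:134374499-134374528, minus strand): ctgaaactctcaCATTCCtggcatagcagc
YAP1 (chr11:102110273-102110302, plus strand): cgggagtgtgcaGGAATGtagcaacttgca
In LATS2 the match began 9 bases after the first base of the transcript, in AMOTL2 69 bases before it, and in YAP1 162 bases before it. The first AMOTL2 window held none. The windows of VGLL3, FRMD6, LATS1, WWTR1 and TEAD3 held none either. The E2F letters TTTCCCGC and TTTGGCGC, searched on both strands because RB1 restrains E2F factors, were in 0 of the 11 windows and in 2.27% of all windows. A match is a description of the letters and does not show binding.

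In RB1 KO cells, the kinase gene LATS2 and the TEAD cofactor gene VGLL3 rose to 1.29 and 1.32 times their wild-type levels, and the other 8 genes did not pass the test. All 16426 genes that passed the filter were tested together by the quasi-likelihood method of edgeR, and a gene was called where its Benjamini-Hochberg adjusted p lay under 0.1. The 2 rising genes are 20% of the 10, beside a background of 1.99% of all tested genes called higher and 0.907% called lower (327 and 149 genes). That background depends on the scaling, with 221 higher (1.35%) and 326 lower (1.98%) with library totals only. At an unadjusted p under 0.05, 3 of the 10 genes were higher and 1 was lower, against 8.16% and 7.16% of all tested genes. The levels of RB1 KO libraries lay above those of wild-type libraries without overlap for 6 of the 10 genes and below for 1. Over all tested genes these shares were 22.5% and 24.3% (46.8% in either direction). Both counts use CPM with TMM factors and were not made with other scalings. Among the 6, WWTR1 had its nearest libraries at 197.2 and 197.1 CPM. The median log2 fold change of the 10 genes was 0.09, beside -0.01 over all genes. In bulk RNA, a smaller share of cells that express a gene and less of its RNA per cell cannot be told apart.

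**Figure D1:**
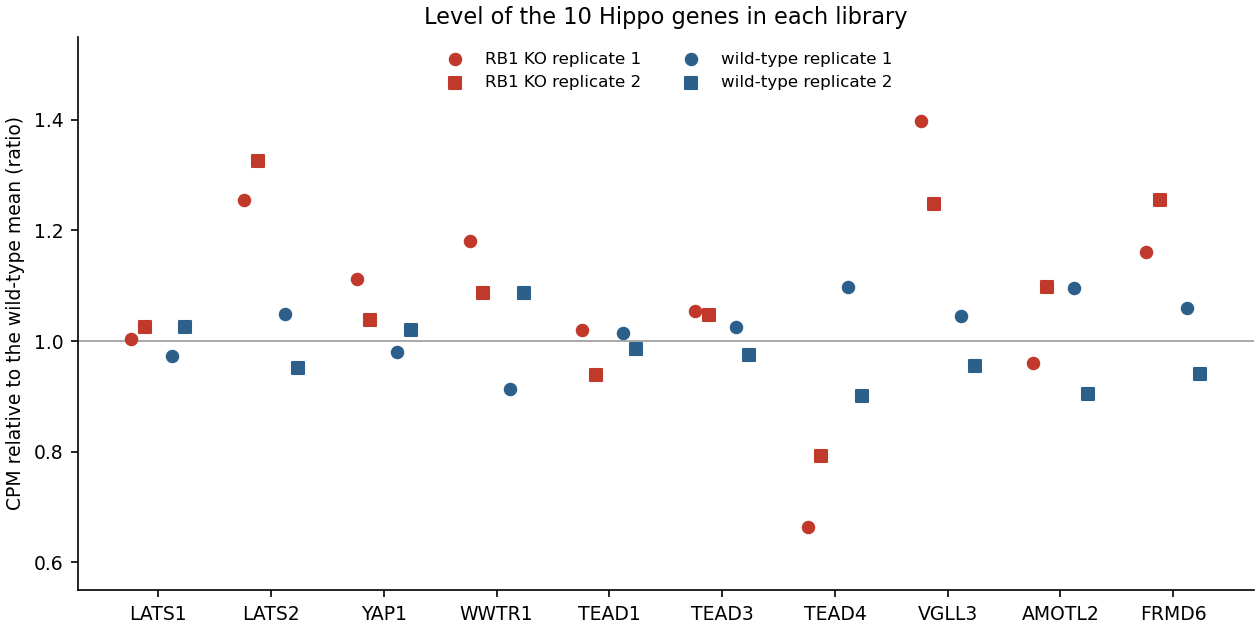
Each point is the level of a gene in 1 library, in CPM divided by the mean of the 2 wild-type libraries, for RB1 KO (red) and wild-type (blue) with replicate 1 as circles and replicate 2 as squares. For LATS2 and VGLL3 both red points lie well above both blue points, for TEAD4 both lie below, and for LATS1, TEAD1 and AMOTL2 the colours mix.

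LATS2 and LATS1 are the kinases that phosphorylate YAP1 and WWTR1. LATS2 lies on chromosome 13 (GRCh37, 21547175 to 21635725, minus strand) and had 3677 and 3940 counts in RB1 KO libraries, against 3116 and 2701 counts in wild-type libraries. Its level was 115 ± 4.55 CPM in RB1 KO cells and 89.3 ± 6.17 CPM in wild-type cells (SD, n = 2 each), with both RB1 KO libraries above both wild-type libraries. The log2 fold change, with its standard error (SE), was 0.37 (SE 0.0765, 95% confidence interval 0.19 to 0.54, edgeR adjusted p = 0.0725). With wild-type replicate 2 left out it was 0.30 and missed the threshold (edgeR adjusted p = 0.19), a fit in which the lone wild-type library is assumed to vary like the RB1 KO libraries. LATS1, on chromosome 6 (149979289 to 150039241, minus strand), had 1829 and 1893 counts in RB1 KO libraries, against 1799 and 1812 counts in wild-type libraries. Its levels overlapped, at 56.3 ± 0.842 CPM in RB1 KO cells and 55.5 ± 2.05 CPM in wild-type cells (SD, n = 2 each), with a log2 fold change of 0.02 and an interval of -0.15 to 0.19.

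A ratio of 2 genes inside a library does not depend on how libraries are scaled to each other. The count ratio of LATS2 to LATS1 was 2.01 and 2.08 in RB1 KO libraries, against 1.73 and 1.49 in wild-type libraries, so the groups were separate. The difference of the mean log2 ratios was 0.35, with exact permutation p = 0.333, the smallest that 2 libraries against 2 allow, and an adjusted p of 0.444 over the 4 ratios computed. Without wild-type replicate 2 the difference was 0.24 and without wild-type replicate 1 it was 0.46. Per kb of exon length, LATS2 made up 75.3% and 75.9% of the LATS RNA in RB1 KO libraries, against 72.4% and 69.3% in wild-type libraries.

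VGLL3 belongs to the vestigial-like proteins, which bind TEAD proteins at a surface that YAP1 and WWTR1 also use. It lies on chromosome 3 (86925538 to 87040299, minus strand) and had 6921 and 6258 counts in RB1 KO libraries, against 5243 and 4581 counts in wild-type libraries. This was 199 ± 16.0 CPM in RB1 KO cells and 151 ± 9.58 CPM in wild-type cells (SD, n = 2 each), again without overlap. The log2 fold change was 0.40 (SE 0.0839, 95% confidence interval 0.21 to 0.60, edgeR adjusted p = 0.0725), and it was the largest increase of the 10 genes. With wild-type replicate 2 left out it was 0.34 and missed the threshold (edgeR adjusted p = 0.143). Scaling to the ERCC spike-ins, synthetic RNAs counted in each library, gave -0.06 for VGLL3 and -0.10 for LATS2, with the median of all genes at -0.49. Relative to that median the values were 0.42 and 0.39, against 0.41 and 0.38 with TMM factors. A change of scaling moves all genes by nearly the same amount, so values relative to the median cannot test the scaling. The spike-ins came to 0.207% and 0.21% of gene counts in RB1 KO libraries, against 0.187% and 0.135% in wild-type libraries, so that wild-type replicate 2 stood apart.

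In CPM with TMM factors, the coactivators YAP1 and WWTR1 lay higher in both RB1 KO libraries. The changes did not pass the test and turned negative with ERCC scaling (-0.38 and -0.32 on the log2 scale). YAP1, on chromosome 11 (101981178 to 102104155, plus strand), had 12018 and 11376 counts in RB1 KO libraries, against 10735 and 10684 counts in wild-type libraries. Its levels of 354 ± 17.0 CPM in RB1 KO cells and 329 ± 9.37 CPM in wild-type cells (SD, n = 2 each) gave a log2 fold change of 0.10, with an interval of -0.07 to 0.28, which was 0.06 without RB1 KO replicate 1. WWTR1, on chromosome 3 (149235022 to 149454501, minus strand), had 7032 and 6563 counts in RB1 KO libraries, against 5517 and 6270 counts in wild-type libraries. RB1 KO replicate 2 and wild-type replicate 2 were nearly level for this gene, at 197.2 and 197.1 CPM. The log2 fold change of WWTR1 was 0.18, with an interval of -0.04 to 0.40. It was 0.07 without wild-type replicate 1 and 0.31 without wild-type replicate 2, and passed in neither. The ratio of WWTR1 to YAP1 counts was 0.585 and 0.577 in RB1 KO libraries, against 0.514 and 0.587 in wild-type libraries, and these overlapped (exact permutation p = 1).
Exons of both coactivator genes overlap a long noncoding RNA on the opposite strand, and which strand the counts used is not stated. These partners had few reads. The partner of YAP1 had 39 and 42 counts in RB1 KO libraries, against 32 and 43 in wild-type libraries, and WWTR1-AS1 had 95 and 115 counts in RB1 KO libraries, against 120 and 121 in wild-type libraries.

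TEAD1, TEAD3 and TEAD4 encode DNA-binding proteins of 1 family, and none passed the test. TEAD1, on chromosome 11 (12695968 to 12966284, plus strand), had 18631 and 17361 counts in RB1 KO libraries, against 18757 and 17442 counts in wild-type libraries. Its groups overlapped and its log2 fold change was -0.03, with an interval of -0.21 to 0.15. TEAD3, on chromosome 6 (35441374 to 35464856, minus strand), had 2582 and 2597 counts in RB1 KO libraries, against 2544 and 2312 counts in wild-type libraries, a log2 fold change of 0.07 with an interval of -0.09 to 0.23, which ran from 0.04 without wild-type replicate 2 to 0.12 without wild-type replicate 1.
TEAD4, on chromosome 12 (3068496 to 3149842, plus strand), was the scarcest of the 10 genes. It had 285 and 345 counts in RB1 KO libraries, against 478 and 375 counts in wild-type libraries, or 9.52 ± 1.19 CPM in RB1 KO cells and 13.1 ± 1.82 CPM in wild-type cells (SD, n = 2 each). Both RB1 KO libraries lay below both wild-type libraries, but the log2 fold change of -0.46 (SE 0.147, 95% confidence interval -0.80 to -0.12) did not pass over all genes (edgeR adjusted p = 0.194). It passed without RB1 KO replicate 2 (-0.59, edgeR adjusted p = 0.0169) and without wild-type replicate 2 (-0.59, edgeR adjusted p = 0.0831), where one genotype has a single library and 3.83% and 1.62% of all genes were called lower. It did not pass without RB1 KO replicate 1 (-0.33, edgeR adjusted p = 0.413) or without wild-type replicate 1 (-0.30, edgeR adjusted p = 0.621).

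The fourth member of the family, TEAD2, was added after its values were seen. It was at 69.5 ± 5.16 CPM in RB1 KO cells and 84.9 ± 3.88 CPM in wild-type cells (SD, n = 2 each), a log2 fold change of -0.29 that missed the threshold (edgeR adjusted p = 0.143). It passed without RB1 KO replicate 1 (edgeR adjusted p = 0.0352), where 1.52% of all genes were called lower, and not with any of the other 3 libraries left out (edgeR adjusted p = 0.286 to 0.359). Summed over the 4 genes per kb of exon length, TEAD RNA was at 107 and 101 CPM per kb in RB1 KO libraries, against 112 and 110 CPM per kb in wild-type libraries. TEAD1 made up 49.5% and 48.3% of this sum in RB1 KO libraries, against 47.2% and 46.7% in wild-type libraries. The share of TEAD3 was 24.1% and 25.3% in RB1 KO libraries, against 22.5% and 21.7% in wild-type libraries. TEAD2 held 22.9% and 21.9% in RB1 KO libraries, against 24.7% and 26.8% in wild-type libraries. TEAD4 held 3.56% and 4.51% in RB1 KO libraries, against 5.65% and 4.72% in wild-type libraries. The shares of all 4 genes were separate between the genotypes, TEAD1 and TEAD3 taking more and TEAD2 and TEAD4 less in RB1 KO libraries. Shares sum to 100% in each library, so these are not 4 separate observations, and the levels of TEAD1 itself overlapped. In level, 46.8% of all tested genes were separate in either direction. The exact permutation test gave p = 0.333 for the count ratios of TEAD3 to TEAD1 (difference of log2 ratios 0.10) and of TEAD4 to TEAD1 (-0.42), again the smallest it can give. The difference for TEAD3 was 0.05 without RB1 KO replicate 2 and 0.16 without RB1 KO replicate 1. For TEAD4 it was -0.61 without RB1 KO replicate 2 and -0.24 without RB1 KO replicate 1.

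AMOTL2 and FRMD6 act upstream of or beside the kinases. AMOTL2, an angiomotin-like protein of cell junctions that binds YAP1, lies on chromosome 3 (134074189 to 134094321, minus strand). It had 6478 and 7497 counts in RB1 KO libraries, against 7479 and 5905 counts in wild-type libraries, and its groups overlapped, with a log2 fold change of 0.04 and an interval of -0.20 to 0.29. Its replicates differed more from each other than the genotypes did, with RB1 KO replicate 2 and wild-type replicate 1 the higher ones. FRMD6, related to the Drosophila Hippo regulator Expanded, lies on chromosome 14 (51955818 to 52197445, plus strand) and had 6589 and 7223 counts in RB1 KO libraries, against 6095 and 5172 counts in wild-type libraries. The levels were 209 ± 11.6 CPM in RB1 KO cells and 173 ± 14.5 CPM in wild-type cells (SD, n = 2 each), without overlap. The log2 fold change of 0.27 (SE 0.0834, 95% confidence interval 0.08 to 0.47) did not pass (edgeR adjusted p = 0.178). Of the 4 fits with 1 library left out, it passed without RB1 KO replicate 1 (0.33, edgeR adjusted p = 0.0645), where 3.37% of all genes were called higher. It did not pass without RB1 KO replicate 2 (0.22, edgeR adjusted p = 0.302), wild-type replicate 1 (0.37, edgeR adjusted p = 0.173) or wild-type replicate 2 (0.19, edgeR adjusted p = 0.472).

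**Figure D2:**
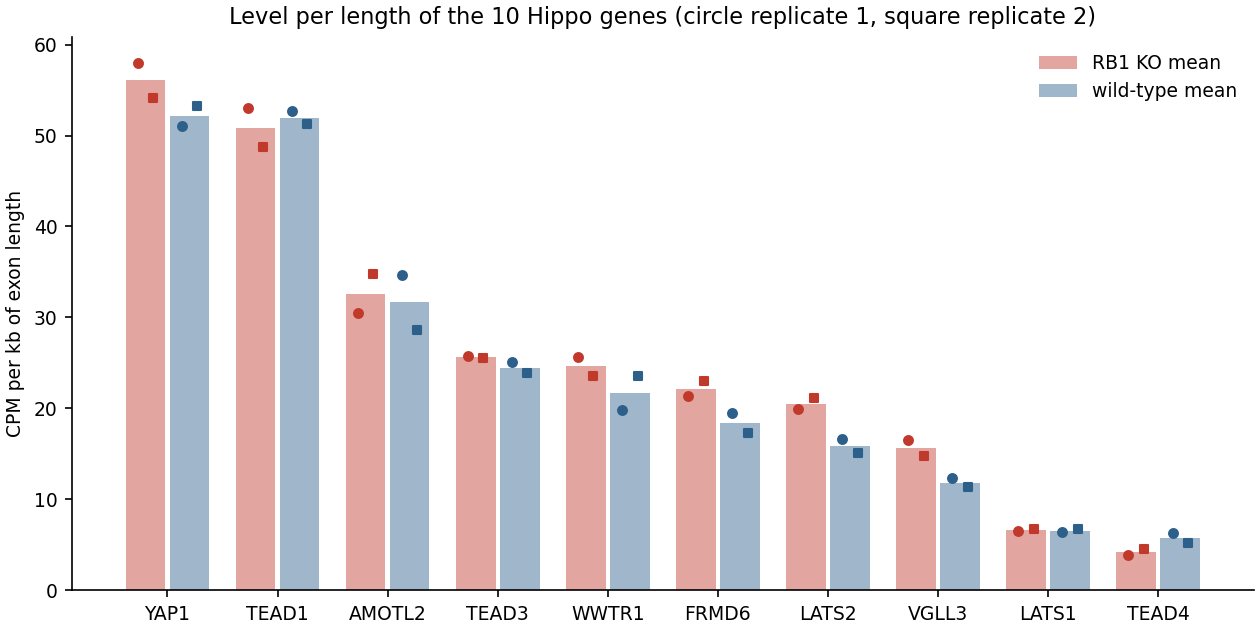
Bars are the mean level of each gene in CPM per kb of annotated exon length in RB1 KO (red, left) and wild-type (blue, right) cells, and points are the single libraries. YAP1 and TEAD1 stand at about the same height above the others, and LATS1 and TEAD4 stand lowest in both genotypes.

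Per kb of exon length the 10 genes had the same order in both genotypes. In RB1 KO cells and wild-type cells YAP1 averaged 56.1 and 52.2 CPM per kb, and TEAD1 was at 50.9 ± 3.01 and 51.9 ± 1.02 CPM per kb (SD, n = 2 each). The libraries of YAP1 and TEAD1 overlapped in wild-type cells but not in RB1 KO cells. These 2 genes ranked above 96.6% or more of 15942 tested genes with a length. AMOTL2, TEAD3, WWTR1, FRMD6, LATS2 and VGLL3 followed in that order, with VGLL3 at 15.6 ± 1.26 CPM per kb in RB1 KO cells and 11.8 ± 0.752 CPM per kb in wild-type cells. Among these neighbours, the libraries of TEAD3 and WWTR1 overlapped in RB1 KO cells, and no other neighbouring pair overlapped in either genotype, although several gaps between their nearest libraries were smaller than the SD of a gene of the pair. In wild-type cells these were the gaps from AMOTL2 to TEAD3, TEAD3 to WWTR1, WWTR1 to FRMD6, FRMD6 to LATS2 and LATS1 to TEAD4, and in RB1 KO cells those from YAP1 to TEAD1, WWTR1 to FRMD6 and FRMD6 to LATS2. LATS1 was at 6.63 and 6.54 CPM per kb in RB1 KO and wild-type cells, below LATS2 at 20.5 and 15.9 CPM per kb. TEAD4 was lowest, at 4.18 and 5.75 CPM per kb in RB1 KO and wild-type cells. Exon lengths are the union of all annotated exons, which can be longer than the transcript a cell makes.

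Of 67 other Hippo pathway genes listed, 66 had a row and 56 were tested, of which 1 rose, 1 fell and 54 did not pass (3.57% called, against 2.90% of all tested genes). Their median log2 fold change was 0.06, beside -0.01 over all genes, and 41 of the 56 were positive, against 7932 of all 16426 genes. With library totals only 27 of the 56 were positive, against 5753 of all genes, and with ERCC factors 0 were (median -0.42), against 858 of all genes. MAP4K3, a kinase that can phosphorylate LATS proteins, was at 103 ± 3.34 CPM in RB1 KO cells and 82.0 ± 6.08 CPM in wild-type cells (SD, n = 2 each). This made a log2 difference of 0.33 (SE 0.0769, edgeR adjusted p = 0.0978), which was not called without RB1 KO replicate 1 (edgeR adjusted p = 0.117), wild-type replicate 1 (edgeR adjusted p = 0.116) or wild-type replicate 2 (edgeR adjusted p = 0.287). FAT3, a giant protocadherin related to Drosophila Fat, fell to 6.58 and 8.59 CPM in RB1 KO libraries, against 17.7 and 15.0 CPM in wild-type libraries. At -1.11 on the log2 scale (SE 0.157, edgeR adjusted p = 0.0238), it passed with each library left out in turn, where 1.52%, 3.83%, 0.402% and 1.62% of all genes were called lower. Its relatives FAT1 and FAT4, named after their values were seen, were at 0.35 and 0.13 on the log2 scale and did not pass in edgeR. FAT1 passed in DESeq2 (adjusted p = 0.0198), where 2.97% of all genes were called higher. With 1 library left out FAT1 ran from 0.24 to 0.47 on the log2 scale. FAT2 had 2 counts or fewer in every library and was not tested.
By role, all 5 genes of the kinase core (STK3, STK4, SAV1, MOB1A and MOB1B) had small positive values of 0.01 to 0.25, and 0 passed. With library totals only and with upper-quartile factors STK4 turned negative, and with ERCC factors all 5 did. Of the 12 genes of the STRIPAK phosphatase complex, which opposes the core kinases STK3 and STK4, 0 passed and the values lay between -0.03 and 0.26. The 10 tested scaffold genes ran from -0.20 to 0.25 with a median of 0.02, and 0 passed. Of these, NF2 (-0.16) and AMOT (-0.20) lay below wild-type without overlap, and 4 others lay above. Over all tested genes these shares were 24.3% and 22.5%. The vestigial-like gene VGLL4 had 0.28 and did not pass (edgeR adjusted p = 0.157). VGLL1 and VGLL2 had 0 counts in every library, so VGLL3 and VGLL4 were the detected members of that family.

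**Figure D3:**
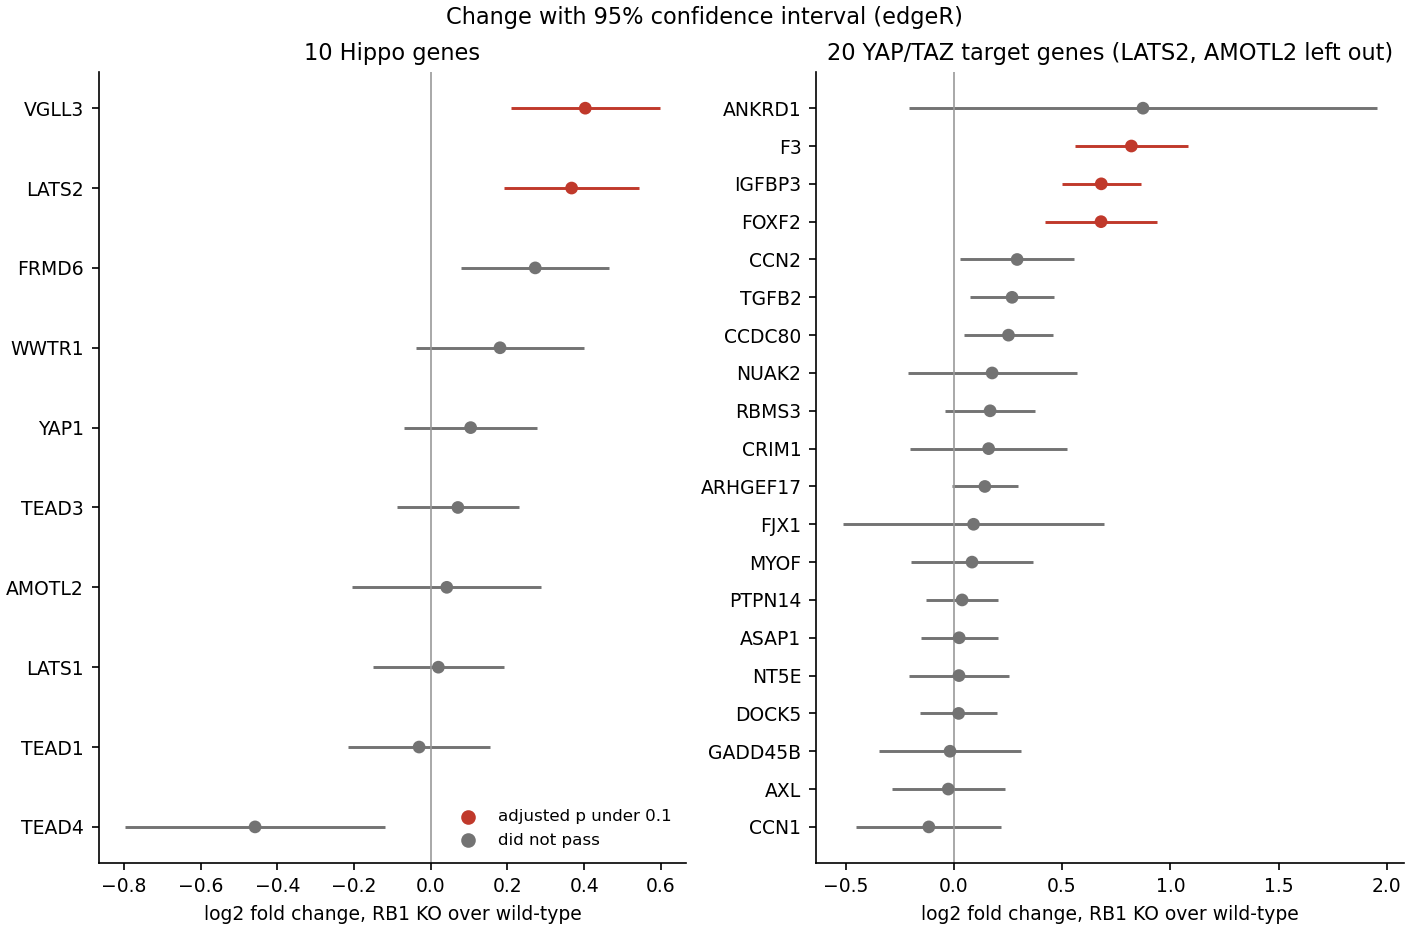
Points are log2 fold changes of RB1 KO over wild-type from edgeR and lines their 95% confidence intervals, with genes at an adjusted p under 0.1 in red. On the left, VGLL3 (0.40) and LATS2 (0.37) are red and TEAD4 lies lowest at -0.46, and on the right F3, IGFBP3 and FOXF2 are red, with 3 of the 20 genes below 0.

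Of 22 genes known from other cells as targets of YAP1, WWTR1 and TEAD proteins, 4 rose and 18 did not pass, and none passed as lower (18.2% called higher, beside 1.99% of all tested genes). They include LATS2 and AMOTL2, and without these 3 of 20 rose. FJX1 and PTPN14 are also in the list of other Hippo pathway genes. F3, the tissue factor that starts blood clotting, was at 744 and 841 CPM in RB1 KO libraries, against 493 and 405 CPM in wild-type libraries. The difference of 0.82 on the log2 scale (SE 0.113, edgeR adjusted p = 0.0225) was the largest of the 4. IGFBP3, which binds insulin-like growth factors, was at 339 and 346 CPM in RB1 KO libraries, against 225 and 202 CPM in wild-type libraries, which is 0.68 on the log2 scale (SE 0.0789, edgeR adjusted p = 0.0126). FOXF2, a forkhead factor of lung and gut mesenchyme, was at 47.0 and 41.4 CPM in RB1 KO libraries, against 25.1 and 30.1 CPM in wild-type libraries, also 0.68 on the log2 scale (SE 0.112, edgeR adjusted p = 0.0353). These 3 genes passed with each library left out in turn. Of the 22 target genes, 17 had a RefSeq window, and the TEAD letters were in 9 of their 19 windows (47.4%), beside 14.0% of all windows. These genes were listed as reported targets of TEAD proteins, so this share is not a result of these libraries.
The targets most used as readouts of the pathway, named here after their values were seen, did not pass. CCN2 was at 1380 and 1562 CPM in RB1 KO libraries, against 1304 and 1098 CPM in wild-type libraries, with a log2 fold change of 0.29. CCN1 was at 552 and 646 CPM in RB1 KO libraries, against 747 and 550.2 CPM in wild-type libraries, with a log2 fold change of -0.12. ANKRD1 was scarce, with 48 and 82 counts in RB1 KO libraries, against 53 and 17 counts in wild-type libraries. CCN2 separated the genotypes, and CCN1 and ANKRD1 overlapped. Without RB1 KO replicate 1, CCN2 (0.38, edgeR adjusted p = 0.0674) and ANKRD1 (1.20, edgeR adjusted p = 0.0276) passed. Without wild-type replicate 2 they were at 0.17 and 0.30 and did not pass. CCN1 turned to 0.13 without wild-type replicate 1 and was at -0.32 without wild-type replicate 2, and passed in none of the 4 fits.

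**Figure D4:**
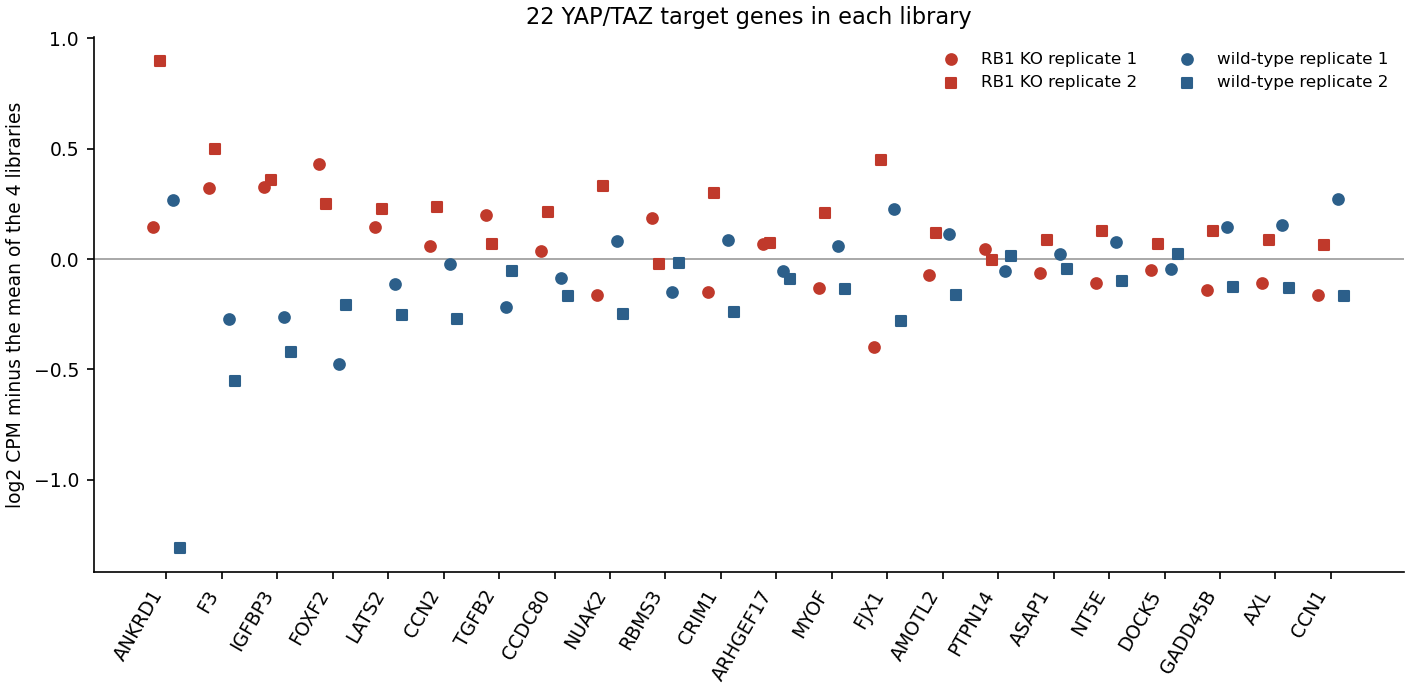
Each point is the log2 CPM of a target gene in 1 library minus the mean of the 4 libraries, with genes ordered by their difference between genotypes. In 17 of the 22 genes the red square (RB1 KO replicate 2) lies above the red circle and the blue circle (wild-type replicate 1) above the blue square, NUAK2, CRIM1 and FJX1 among them.

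Replicates of the same genotype differed in the target genes, and in the same libraries from gene to gene. Of the 22 genes, 17 (77.3%) were higher in RB1 KO replicate 2 than in RB1 KO replicate 1 and higher in wild-type replicate 1 than in wild-type replicate 2, against 31.3% of 16419 genes with counts in every library. The median difference on the log2 scale was 0.18 between the RB1 KO replicates and 0.19 between the wild-type replicates, beside a median of 0.15 between RB1 KO and wild-type cells. Over all genes the median differences between replicates were -0.0011 and -0.00085. CRIM1, a transmembrane protein that binds bone morphogenetic proteins, named after its values were seen, was at 439 and 599.9 CPM in RB1 KO libraries, against 517 and 413 CPM in wild-type libraries. Its log2 fold change was 0.16 with all libraries, 0.37 without RB1 KO replicate 1 (edgeR adjusted p = 0.0458) and -0.08 without RB1 KO replicate 2. Of the 10 Hippo genes, 4 had this arrangement of libraries (LATS2, TEAD4, AMOTL2 and FRMD6), a share of 40%.
The count of rising targets depended on the libraries used. Without RB1 KO replicate 1, 10 of the 22 passed as higher with a median of 0.23, beside 3.37% of all genes tested there. Without RB1 KO replicate 2, 5 passed as higher with a median of 0.02, beside 4.46% of all genes. Without wild-type replicate 1 and without wild-type replicate 2, 4 and 3 passed, with medians of 0.20 and 0.07, beside 1.08% and 2.21% of all genes. What set these libraries apart was not tested.

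**Figure D5:**
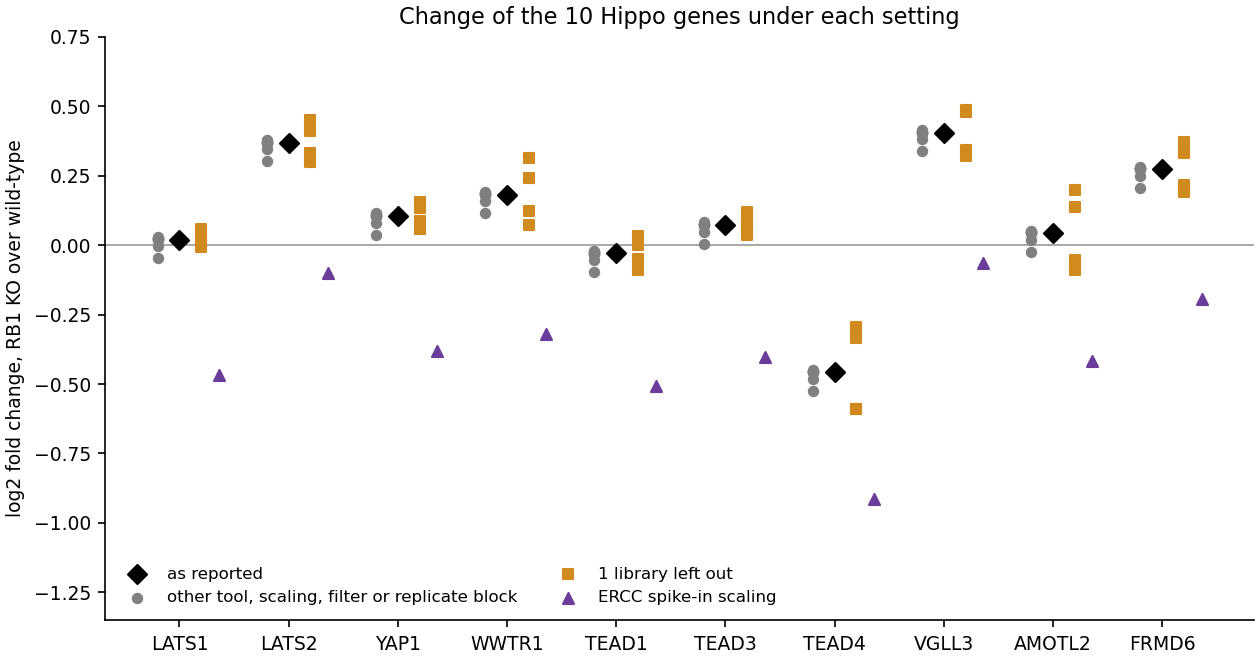
Points are the log2 fold change of each of the 10 genes as reported (black diamonds), with another tool, scaling, filter or the replicate block (grey circles), with 1 library left out (orange squares) and with ERCC spike-in scaling (purple triangles). LATS2, VGLL3, FRMD6, YAP1, WWTR1 and TEAD3 stay above 0 except with ERCC scaling, which places all 10 genes below 0. TEAD4 stays below 0 throughout.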

How the data were processed

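Human IMR-90 libraries, 2 from RB1 KO and 2 from wild-type cells, were grouped by genotype label. With STAR, listed as 2.7.2b by the submitters' notes, the authors mapped reads to GRCh37 and counted those with 1 mapping place per gene of GENCODE v19. The deposited values are these raw counts, not normalized. Lines for spike-ins and summaries entered neither library sizes nor tests. Symbols, coordinates and exon lengths came from GENCODE v44 lifted to GRCh37, which named 55538 of 57820 IDs. IDs without a name held 2.35% to 3.11% of the counts.

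The test was glmQLFTest of edgeR 4.0.16, run under R 4.3.3 (glmQLFit, TMM factors, filterByExpr with a minimum count of 10), Benjamini-Hochberg adjustment over 16426 genes, and a threshold on the adjusted p of 0.1, the cutoff the paper used with DESeq2. CPM use the TMM factors. Each standard error is the absolute log2 fold change over the root of F. Ratios were tested by exact permutation, two-sided. The test was tried on simulated data. Alternatives were DESeq2 1.42.0, limma-voom 3.58.1, RLE, upper-quartile and ERCC factors, library totals, other filters, removal of mitochondrial genes, a stricter threshold, a replicate block and leaving out each library, with a crossed block added after seeing the data. Counts of replicates differed by more than sampling noise (chi-square per degree of freedom 17.6 in RB1 KO, 18.8 in wild-type).

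The 10 genes and all lists were chosen with earlier results of these data known, and the paper's own enrichment on these libraries names the Hippo pathway, so no direction is independent support. Named genes are the 10, RB1, and of each other pathway list the called genes, up to 10. Others are marked where they appear. Pictures used Python 3.11.15 with matplotlib 3.10.9.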

Additional observations from a re-analysis of the deposited data

How the results depend on the processing

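The depth of 30873239 to 34247292 counts per library leaves the 10 genes well measured, and the number of libraries, 2 per genotype, limits the precision. The 2 calls among the 10 genes became 1 with library totals only (LATS2, 3.33% of all genes called) and with no filter (VGLL3, 1.08%). They became 0 with ERCC factors (1.09%) and at an adjusted p under 0.05 (1.35%). The replicate numbers pair nothing in the labels, and the deviations of same-numbered libraries correlated with r = -0.343 over 13440 genes. With the replicate number as a block (replicate block), 0 of the 10 genes, 1 other pathway gene and 3 target genes passed. Over all genes 1.38% did. With the crossed replicate block, 5, 19 and 11 passed, beside 18.1% of all genes. With 1 library left out, 1 to 3 of the 10 genes, 2 to 8 other pathway genes and 3 to 10 target genes passed. Over all genes the share called in these fits ran from 1.48% without wild-type replicate 1 to 8.29% without RB1 KO replicate 2. The 8 other pathway genes belong to the fit with 8.29%. Without wild-type replicate 2 the 1 gene of the 10 was TEAD4, as lower, and neither LATS2 nor VGLL3 passed. The 2 other pathway genes called became 1 with limma-voom (2.71% of all genes), ERCC factors, an adjusted p under 0.05 and no filter. MAP4K3 was the gene lost. The same held with a minimum of 10 counts per library (2.93% of all genes). With upper-quartile factors 0 were higher and 2 lower (1.76% and 1.17% of all genes). With library totals only 0 were higher and 3 lower (1.35% and 1.98% of all genes). With DESeq2 2 were higher and 1 lower (2.97% and 1.10% of all genes). The 4 target genes called became 0 with ERCC factors, where 0.067% of all genes were called higher.

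With ERCC factors the log2 fold changes turned to -0.47 for LATS1, -0.10 for LATS2, -0.38 for YAP1, -0.32 for WWTR1, -0.40 for TEAD3, -0.065 for VGLL3, -0.42 for AMOTL2 and -0.19 for FRMD6, with the median of all genes at -0.49. LATS1 turned to -0.046 with library totals only and -0.0032 with upper-quartile factors, and AMOTL2 to -0.024 with library totals only. With 1 library left out, LATS1 ran from -0.0061 to 0.059, TEAD1 from -0.089 to 0.032 and AMOTL2 from -0.088 to 0.20, and the WWTR1 to YAP1 difference from -0.014 to 0.18. The other 7 genes kept their direction there. The cause of these shifts was not tested.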
